A study of Homo sapiens with 15 samples.

Results

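The nuclear genes of the respiratory chain and of ATP synthase were followed through 15 RNA sequencing libraries of HT-1080, a human fibrosarcoma cell line. A gene was a member if it was annotated as protein-coding and its symbol started with NDUFA, NDUFB, NDUFC, NDUFS, NDUFV, UQCR, COX4I, COX5, COX6, COX7, COX8, ATP5F, ATP5M or ATP5P, or if it was SDHA, SDHB, SDHC, SDHD, CYC1 or CYCS. This rule took 99 of the 60670 genes in the count table. It left out 180 pseudogenes and 6 other genes with matching names that were not annotated as protein-coding. By role, 37 members encode subunits of complex I, 4 of complex II, 10 of complex III, 17 of complex IV and 18 of complex V, and 1 (CYCS) encodes cytochrome c. The prefix also took in 8 complex I assembly factors (NDUFAF1 to NDUFAF8) and 2 read-through genes, and NDUFA4 and its paralog NDUFA4L2 are described apart.

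Cycling HT-1080 cells received the vehicle DMSO and carry a time label of 6 h. Senescence had been brought on by 6 days of a mutant TRF2, a protein of the telomere cap, that acts as a dominant negative. These cells then received DMSO or the kinase inhibitor GNF-7 at 1 uM, and were collected after 6 h or 24 h. Each of the 5 groups had 3 libraries, and all cultures were kept at 5% oxygen. Every group came from 1 cell line, GNF-7 was given to senescent cells in each treated group, there was no cycling group at 24 h, and the counts do not separate mutant from endogenous TERF2 transcripts. The replicates are labelled as biological with nothing on what separated them, so the p-values measure the spread between these libraries.

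Complexes I and II take electrons from NADH and succinate, complex III passes them to cytochrome c, and complex IV passes them to oxygen. Complexes I, III and IV pump protons across the inner mitochondrial membrane, and complex V, the ATP synthase, lets them return to make ATP. Most subunits are encoded in the nucleus and imported, and mitochondrial DNA encodes the remaining 13. Complexes I, III, IV and V are therefore built from both genomes, whereas complex II is wholly nuclear.

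Library totals ranged from 25991007 to 32323393 counts. The 6 mesenchymal markers examined (VIM, CDH2, FN1, MMP14, MMP2 and PLAU) summed to between 6176 and 8901 counts per 1000000 of the scaled library (CPM), whereas epithelial, leukocyte and endothelial markers summed to at most 1.2 CPM in any library. TERF2 averaged 58.2 CPM in cycling cells. In senescence it averaged 287 CPM with vehicle and 222 CPM with GNF-7 at 6 h, and 220 CPM with vehicle and 132 CPM with GNF-7 at 24 h. The proliferation marker MKI67 fell in the same comparisons as most members, from 509 to 149 CPM in senescence, from 149 to 114 CPM with GNF-7 at 6 h and from 125 to 39.1 CPM at 24 h. LMNB1, a nuclear lamin that is low in senescent cells, fell from 234 to 32.2, from 32.2 to 24.4 and from 32 to 10.9 CPM. The part of either in the members' changes was not tested. Genes of mitochondrial DNA took 4.32 ± 0.637% of counts (SD, n = 3) in cycling cells, 11.7 ± 0.638% and 16.9 ± 1.8% in senescent vehicle cells at 6 h and 24 h, and 14.1 ± 1.08% and 23.3 ± 0.767% after GNF-7 at 6 h and 24 h. In a bulk library, fewer cells of a type and less RNA of a gene per cell cannot be told apart.

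Of the 99 members, 91 had enough counts to be tested. The other 8 were COX6A2, COX7A1 and COX7B2 with 0 counts in all 15 libraries together, which allows at most 3 counts, COX4I2 with 1, NDUFC2-KCTD14 with 3, ATP5MGL with 14, COX8C with 29 and ATP5MF-PTCD1 with 69. COX4I2, COX6A2 and COX7A1 are isoforms known from lung, heart and muscle, and their paralogs COX4I1, COX6A1 and COX7A2 carried the counts here. Per kilobase of exon, the highest level in cycling cells was that of ATP5F1B, the catalytic beta subunit of ATP synthase, at 420 CPM per kb, followed by NDUFS5 at 224, COX8A at 222, UQCRH at 160 and COX6B1 at 116 CPM per kb. The median over the tested members was 26.5 CPM per kb. Length counts the merged exons of all annotated transcripts of a gene, so this order depends on the annotation. ATP5F1A averaged 597 CPM in cycling cells but lay at 54.8 CPM per kb over 10908 bases, and NDUFS5 averaged 123 CPM over 548 bases. Exons of 17 members overlap another gene on the same strand by 10% or more, among them COX8A (34.5%), NDUFB8 (33.8%), COX6A1 (13%), SDHD (11.2%) and UQCR11 (10.9%), and their values are uncertain to that extent.

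The starts of 5 members are shown, which did not all move alike in the comparisons below. ATP5MC1 and SDHD were both called lower in senescence and at both times of GNF-7. A link between the marked letters and the changes was not tested. Each runs from 250 bases before to 50 bases after a transcript start (RefSeq, GRCh38.p14). Capitals mark the letters GCGCATGCG, recognised by the factor NRF1, and CCGGAAGT, recognised by GABP and other ETS factors, on either strand. ATP5MC1 (chr17:48892537-48892836, plus strand) and ATP5MC2 (chr12:53676034-53676333, minus strand, 1 of 3 starts) encode the same mature protein. SDHD (chr11:112086623-112086922, plus strand) encodes a membrane anchor of complex II, COX5B (chr2:97645812-97646111, plus strand) a subunit of complex IV, and COX7A2L (chr2:42361168-42361467, minus strand, 1 of 2 starts) a protein that joins complexes III and IV.
ATP5MC1: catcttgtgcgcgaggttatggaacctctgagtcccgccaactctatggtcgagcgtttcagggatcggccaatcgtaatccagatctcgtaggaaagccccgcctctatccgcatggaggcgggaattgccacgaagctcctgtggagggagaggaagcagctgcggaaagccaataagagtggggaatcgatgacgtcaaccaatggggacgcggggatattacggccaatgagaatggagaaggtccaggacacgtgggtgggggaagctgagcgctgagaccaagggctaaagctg
ATP5MC2: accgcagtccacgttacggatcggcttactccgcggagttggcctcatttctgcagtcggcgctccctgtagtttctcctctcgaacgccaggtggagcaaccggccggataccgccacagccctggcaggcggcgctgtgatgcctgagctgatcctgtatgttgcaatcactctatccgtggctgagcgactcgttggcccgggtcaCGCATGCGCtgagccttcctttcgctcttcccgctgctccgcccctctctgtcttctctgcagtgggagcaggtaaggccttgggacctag
SDHD: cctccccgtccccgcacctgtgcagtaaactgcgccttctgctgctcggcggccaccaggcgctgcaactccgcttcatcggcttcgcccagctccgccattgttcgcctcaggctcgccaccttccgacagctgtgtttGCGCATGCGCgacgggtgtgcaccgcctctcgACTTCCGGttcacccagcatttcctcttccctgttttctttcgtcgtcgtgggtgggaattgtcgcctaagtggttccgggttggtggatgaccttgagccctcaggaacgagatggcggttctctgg
COX5B: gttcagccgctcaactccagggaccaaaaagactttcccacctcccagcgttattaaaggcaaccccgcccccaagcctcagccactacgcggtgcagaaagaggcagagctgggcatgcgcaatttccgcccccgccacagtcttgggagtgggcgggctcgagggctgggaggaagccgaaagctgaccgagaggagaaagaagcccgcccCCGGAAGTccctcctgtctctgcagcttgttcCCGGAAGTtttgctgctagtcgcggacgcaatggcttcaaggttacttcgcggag
COX7A2L: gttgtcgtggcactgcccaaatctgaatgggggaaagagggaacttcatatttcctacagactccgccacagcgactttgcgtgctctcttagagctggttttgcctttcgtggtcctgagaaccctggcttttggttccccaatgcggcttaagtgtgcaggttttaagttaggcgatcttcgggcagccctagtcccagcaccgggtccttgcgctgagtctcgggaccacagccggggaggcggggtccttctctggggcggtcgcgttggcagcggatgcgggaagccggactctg
SDHD holds an NRF1 match that reads on both strands and an ETS match. COX5B holds 2 ETS matches. The ATP5MC2 window shown holds 1 NRF1 match, and those of its other 2 starts hold neither of the marked motifs. Neither motif is in the windows of ATP5MC1 and COX7A2L shown.

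A start was matched for 78 members and for 15842 protein-coding genes. The NRF1 letters were in 12 members (15.4%) against 3.11% of the 15842. The ETS letters were in 12 members (15.4%) against 6.97%, and the YY1 letters AAGATGGC in 13 members (16.7%) against 4.66%. The letters TTGCATCA of the composite C/EBP-ATF element were in 0 of the 78 and in 0.903% of the 15842. These are matches of letters and not measured binding.

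The summed level of the members was highest in cycling cells and lowest after 24 h of GNF-7. In cycling cells the 99 members summed to 8861 ± 25 CPM (SD, n = 3). The sum was 6872 ± 64.1 CPM in senescent vehicle cells at 6 h and 6254 ± 157 CPM after 6 h of GNF-7. At 24 h it was 7291 ± 113 CPM in vehicle and 5955 ± 134 CPM in GNF-7, which is 81.7% of the matched vehicle. As a share of all counts the members took 0.844% in cycling cells, 0.717% and 0.705% in vehicle at 6 h and 24 h, and 0.658% and 0.587% after GNF-7. The libraries of each treated group lay below those of its vehicle group, and those of both vehicle groups lay below those of cycling cells.

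The summed levels of the complexes are given as descriptions, with no test between them. After 24 h of GNF-7 the subunits of complex V summed to 1770 ± 38.7 CPM, 73.4% of the matched vehicle and 54.3% of cycling cells. Complex I was then at 83.5% of the matched vehicle, complex II at 83% and complex III at 84.7%. Complex IV, counted with COX7A2L and without NDUFA4, was at 90.6%, and the 8 NDUFAF assembly factors at 105%. NDUFA4 and NDUFA4L2 together were at 82.6%. Cytochrome c was lowest, at 64.6% of the matched vehicle and 36.8% of cycling cells.

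**Figure D1:**
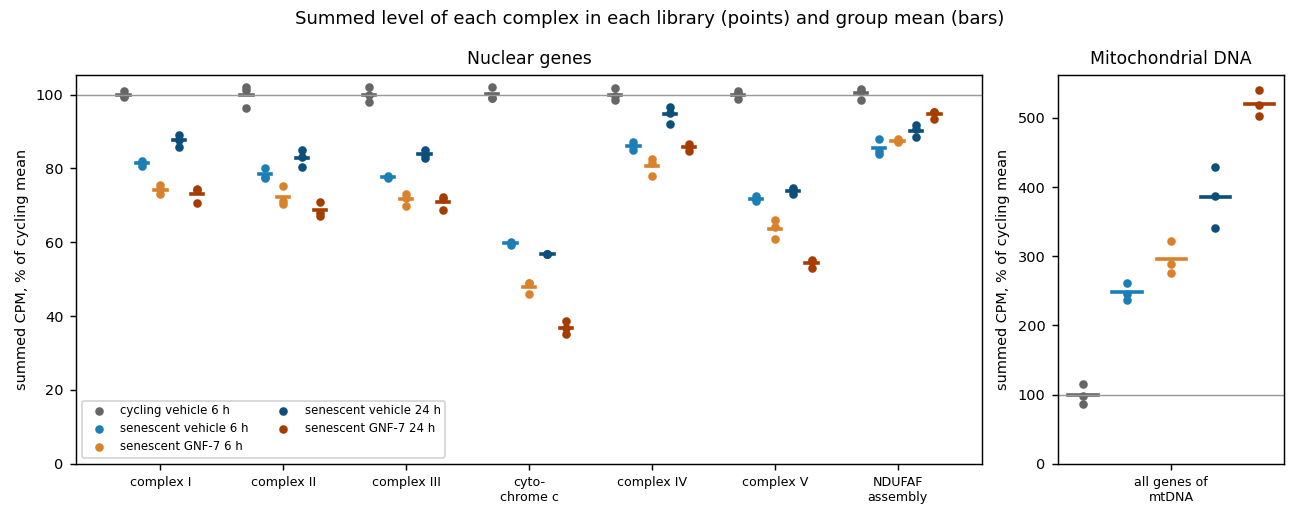
Summed CPM of each complex in each library (points) and its group mean (bars), as a percentage of the mean of cycling cells, with all genes of mitochondrial DNA in a panel with its own axis. Complex V after 24 h of GNF-7 lies at 54.3% and complex IV at 85.7% of cycling cells, while the genes of mitochondrial DNA lie at 521%.

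The first comparison set senescent against cycling cells, both in vehicle at 6 h. Most respiratory chain genes were lower in senescence, with the largest falls in the ATP synthase gene ATP5MC1, in NDUFAB1, in CYCS, in UQCRHL and in SDHD. By edgeR's quasi-likelihood test at an adjusted p under 0.05, 65 of the 91 tested members fell and 3 rose, where 34.4% of all 18563 tested genes fell and 35.6% rose (70% in either direction). The median log2 fold change of the members was -0.27, against 0.06 over all genes. Of the 76 tested members with less than 10% overlap on their strand, 55 fell and 2 rose. Scaling by total counts moved the members' split to 12 higher and 52 lower (and the median of all genes to 0.19), and restricting the fit to genes of at least 5 CPM moved it to 14 higher and 47 lower of 86. In either direction, these fits called 13008 of 18563 and 9211 of 11234 genes.

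In complex I, 26 of 37 subunits fell in senescence. NDUFAB1, the mitochondrial acyl carrier protein that is also a complex I subunit, was at 102, 101 and 99.1 CPM in the cycling libraries and at 60.6, 56.2 and 58.1 CPM in the senescent ones. The groups did not overlap, and the log2 fold change was -0.79 (SE of 0.0498 and edgeR adjusted p of 5.37e-22). Of the 7 core subunits, which carry the flavin and most iron-sulfur clusters, 5 fell, among them NDUFS1 at -0.50 and NDUFV1 at -0.25. NDUFB8, an accessory subunit of the membrane arm, fell by 0.27 on the log2 scale, and this call was lost with total counts and with the filter at 5 CPM.

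In complex II, SDHD fell from 86.9, 92.2 and 96.3 CPM to 56.2, 57.5 and 54.9 CPM, a log2 fold change of -0.71 (SE of 0.051 and edgeR adjusted p of 2.04e-19). SDHB, the iron-sulfur subunit, fell to a lesser extent (-0.39). SDHC, the other membrane anchor, was at 49.2 ± 3.62 CPM in cycling and 51.4 ± 1.39 CPM in senescent cells and was not called (0.06, edgeR adjusted p 0.319). The flavoprotein SDHA was called at -0.14, but its direction turned to 0.008 with the filter at 5 CPM, and the call was lost without the third cycling library and without the second or the third senescent one.

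In complex III, 9 of 10 members fell. CYC1, the cytochrome c1 subunit, fell by 0.60 on the log2 scale, from 163 ± 5.71 to 107 ± 0.894 CPM. UQCRFS1, the Rieske iron-sulfur protein, fell by 0.52, the core protein UQCRC1 by 0.45 and the hinge protein UQCRH by 0.48. The second core protein, UQCRC2, was not called at -0.07 (edgeR adjusted p 0.137), and its sign turned with total counts (0.067, not called) and with the 5 CPM filter, which called it higher (0.085, edgeR adjusted p 0.0351). CYCS, the electron carrier between complexes III and IV, was at 251, 258 and 251 CPM in cycling libraries and at 152, 150 and 151 CPM in senescent ones. These ranges lie far apart, and the log2 fold change was -0.74 (SE of 0.0385 and edgeR adjusted p of 4.08e-26).

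In complex IV, 7 of 12 tested members fell. COX8A fell by 0.54 on the log2 scale and COX5A by 0.42. The large subunit gene COX4I1 fell by 0.19, from 302 ± 6.34 to 265 ± 0.936 CPM, and this call was lost with total counts and with the 5 CPM filter. COX5B was at 87.8, 82.5 and 88.4 CPM in cycling and 89.8, 85.5 and 90.8 CPM in senescent libraries. These overlapped (0.04, edgeR adjusted p 0.475), whereas with length and GC trends removed COX5B was called lower (-0.186, edgeR adjusted p 0.0013).

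In complex V, 15 of 17 tested genes fell. The catalytic alpha subunit ATP5F1A fell by 0.61 on the log2 scale and the beta subunit ATP5F1B by 0.52. ATP5F1B was at 946, 990 and 992 CPM in cycling and 675, 680 and 680 CPM in senescent libraries. All 3 genes of the proton-carrying c ring fell. ATP5MC1 (GRCh38 chromosome 17, 48892765 to 48895871, plus strand) was at 67.0, 67.3 and 73.3 CPM in the cycling libraries and at 39.4, 40.2 and 37.5 CPM in the senescent ones, a log2 fold change of -0.83 (SE of 0.0625 and edgeR adjusted p of 4.94e-18). ATP5MC2 (chromosome 12, 53632726 to 53677408, minus strand) fell by 0.57 and ATP5MC3 (chromosome 2, 175176258 to 175184607, minus strand) by 0.52. ATP5PD, the d subunit of the peripheral stalk, was the only complex V gene to rise, at 0.16, and it lost its call without the third senescent vehicle library at 6 h.

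The other 2 rises in senescence were of genes with few counts. NDUFA4L2 was at 1.61, 2.03 and 2.02 CPM in cycling and 2.42, 1.83 and 3.68 CPM in senescent libraries, which overlap. It was called at 0.47 (SE of 0.208 and edgeR adjusted p of 0.0427). Without the third senescent library its value was 0.155, and the call was also lost without any 1 of the 3 cycling libraries and in limma voom. NDUFA7 was called at 0.82 from 0.723 ± 0.355 CPM, shares 32.3% of its exon length with another gene on the same strand, and lost its call without the first cycling library and without the second or the third senescent one. Of the assembly factors, 4 of 8 fell, led by NDUFAF4 at -0.70.

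**Figure D2:**
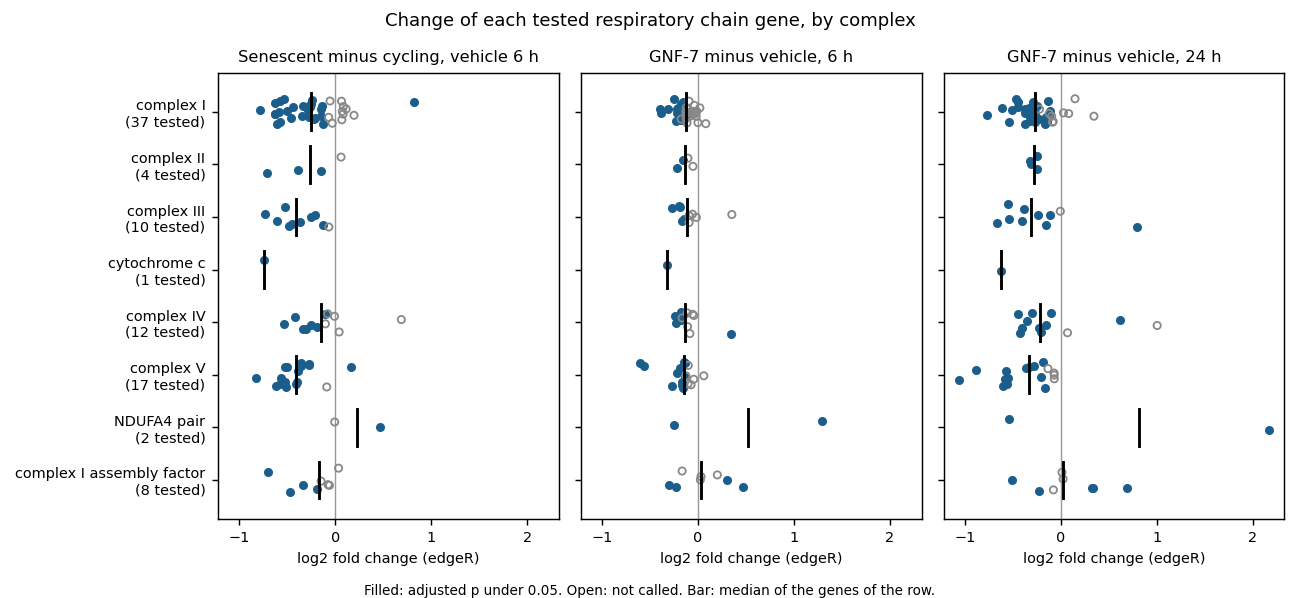
Log2 fold change (edgeR) of each tested member in 3 comparisons, by complex, with called genes filled and the median of each row as a bar. Most points lie left of 0 in each panel, with medians of -0.41 in senescence and -0.33 after 24 h of GNF-7 for complex V, and NDUFA4L2 lies far to the right after GNF-7.

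The second comparison asked what 6 h of GNF-7 changed in senescent cells. Changes in the members were small, mostly downward, and led by 2 of the 3 c ring genes, while COX7A2L, NDUFA4L2, NDUFAF6 and NDUFAF7 rose. In all, 45 of 91 members fell and 4 rose, where 21.4% of all genes fell and 17.9% rose (39.3% in either direction). The members' median was -0.14 against 0.01 over all genes. Without the second GNF-7 library at 6 h the number that fell was 27.

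ATP5MC1 was at 25.6, 25.3 and 26.4 CPM in the GNF-7 libraries, each below the 3 vehicle libraries given above, and its log2 fold change was -0.60 (SE of 0.0668 and edgeR adjusted p of 4.31e-11). ATP5MC3 was at 148, 144 and 146 CPM in vehicle and at 101, 95.9 and 100 CPM in GNF-7 libraries, which do not overlap. Its log2 fold change was -0.56 (SE of 0.0408 and edgeR adjusted p of 3.09e-18). ATP5MC2 moved less, from 101, 99.0 and 94.6 CPM to 88.3, 86.8 and 92.5 CPM (-0.14, edgeR adjusted p 0.00602), and its call was lost without the second GNF-7 library and with the 5 CPM filter. Of all complex V genes 11 of 17 fell, with ATP5F1A at -0.17 and ATP5F1B at -0.16. The gamma subunit ATP5F1C was not called at -0.10, though it was without the first GNF-7 library (-0.158).

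In complex I, 18 of 37 subunits fell, and the largest changes were in the accessory subunits NDUFB3 and NDUFA2. NDUFB3 was at 42.5, 40.6 and 43.9 CPM in vehicle and 31.5, 31.3 and 33.9 CPM in GNF-7 libraries, with no overlap and a log2 fold change of -0.39 (SE of 0.0598 and edgeR adjusted p of 1.54e-07). NDUFA2 fell by 0.38. NDUFB3 shares 19.8% of its exon length with genes on the other strand. CYCS fell to 124, 124 and 116 CPM (-0.32), all below the senescent vehicle libraries. In complex III UQCRFS1 fell by 0.27 and UQCRC2 by 0.19, and in complex II SDHD fell by 0.21. In complex IV 5 of 12 tested genes fell, such as COX6B1 (-0.24) and COX7A2 (-0.23).

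COX7A2L (GRCh38 chromosome 2, 42333546 to 42425088, minus strand) encodes a COX7A-like protein known to tether complex III to complex IV in supercomplexes. It was at 65.9, 67.9 and 71.9 CPM in vehicle libraries and rose to 88.8, 82.9 and 88.7 CPM in GNF-7 libraries. The groups did not overlap, and the log2 fold change was 0.34 (SE of 0.0454 and edgeR adjusted p of 4.92e-09). In senescence it had not been called (-0.08, edgeR adjusted p 0.128). COX7A2L took 41.7 ± 0.69% of the counts of the pair COX7A2 and COX7A2L in senescent vehicle cells at 6 h and 51.5 ± 0.73% after GNF-7, a share that does not depend on how libraries are scaled.

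NDUFA4 and NDUFA4L2 moved in opposite directions. NDUFA4, first assigned to complex I and now known as a subunit of complex IV, was at 63.1, 61.7 and 57.9 CPM in vehicle and 53.4, 47.7 and 52.8 CPM in GNF-7 libraries (log2 fold change -0.25, SE of 0.0524 and edgeR adjusted p of 9.13e-05). NDUFA4L2 (GRCh38 chromosome 12, 57234903 to 57240715, minus strand), a paralog known for its induction in low oxygen, rose to 6.19, 7.13 and 6.05 CPM, a log2 fold change of 1.30 (SE of 0.176 and edgeR adjusted p of 2.02e-08). Its exons overlap those of genes on the other strand by 1.2%. The neighbouring SHMT2 on that strand averaged 107 CPM in vehicle and 221 CPM in GNF-7 cells at 6 h, and its part in the NDUFA4L2 counts was not tested.

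Of the 8 complex I assembly factors, 2 rose and 2 fell at 6 h. NDUFAF6, needed early in assembly, was at 21.3, 20.1 and 23.2 CPM in vehicle and 25.6, 35.1 and 28.8 CPM in GNF-7 libraries, a log2 fold change of 0.47. NDUFAF7, a further assembly factor, rose by 0.31. NDUFAF1, a part of the complex that builds the membrane arm, fell by 0.30, and NDUFAF4 fell by 0.23. Both falls lost their calls without the first vehicle library at 6 h (-0.219 and -0.215), and NDUFAF4 also without the second or the third GNF-7 library.

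The third comparison was GNF-7 against vehicle at 24 h. More members were lower than at 6 h, the summed level relative to vehicle was lowest for cytochrome c and ATP synthase, and ATP5MC1 and ATP5MC3 fell while the third c ring gene was not called. In numbers, 66 of 91 members fell and 6 rose, where 29.7% of all genes fell and 29.3% rose (58.9% in either direction). The median was -0.25 against 0.04 over all genes. The members that rose were NDUFA4L2, UQCRHL, NDUFAF6, COX7A2L, NDUFAF2 and NDUFAF7.

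ATP5MC1 was at 39.5, 41.2 and 40.0 CPM in vehicle libraries and at 15.9, 21.6 and 20.4 CPM in GNF-7 libraries at 24 h. These groups are well apart, and the log2 fold change of -1.06 (SE of 0.0692 and edgeR adjusted p of 2.39e-20) was the largest fall among the members. ATP5MC3 was at 149, 145 and 155 CPM in vehicle and 79.1, 77.9 and 85.7 CPM in GNF-7 libraries, a log2 fold change of -0.89 (SE of 0.0414 and edgeR adjusted p of 6.83e-28). ATP5MC2 was at 107, 106 and 109 CPM in vehicle and at 105, 103 and 99.0 CPM in GNF-7 libraries (-0.07, edgeR adjusted p 0.153) and was not called.

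The makeup of the c ring transcripts differed between the groups. ATP5MC2 gave 34.3 ± 0.46% of the counts of the 3 genes in cycling cells and 34.7 ± 0.52% in senescent vehicle cells at 6 h. It gave 36.1 ± 0.19% in vehicle at 24 h and 50.5 ± 2.2% after 24 h of GNF-7, where the 3 libraries were at 52.6, 50.8 and 48.3%. ATP5MC1 gave 16.4 ± 0.6% in cycling cells, 13.5 ± 0.51% in vehicle at 24 h and 9.52 ± 1.4% in GNF-7. These shares were chosen after the values were seen and carry no test.

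In the catalytic head of ATP synthase, 4 of 5 genes fell at 24 h. ATP5F1B was at 636, 634 and 647 CPM in vehicle and 426, 423 and 433 CPM in GNF-7 libraries, with no overlap and a log2 fold change of -0.58 (SE of 0.0337 and edgeR adjusted p of 2.24e-23). ATP5F1A fell by 0.55 and ATP5F1C by 0.57. The delta subunit ATP5F1D was at 77.2 ± 0.543 CPM in vehicle and 73.7 ± 3.76 CPM in GNF-7 and was not called (-0.07). In the membrane part and the stalk, ATP5MF fell by 0.60 and ATP5PB, the b subunit, by 0.56.

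**Figure D3:**
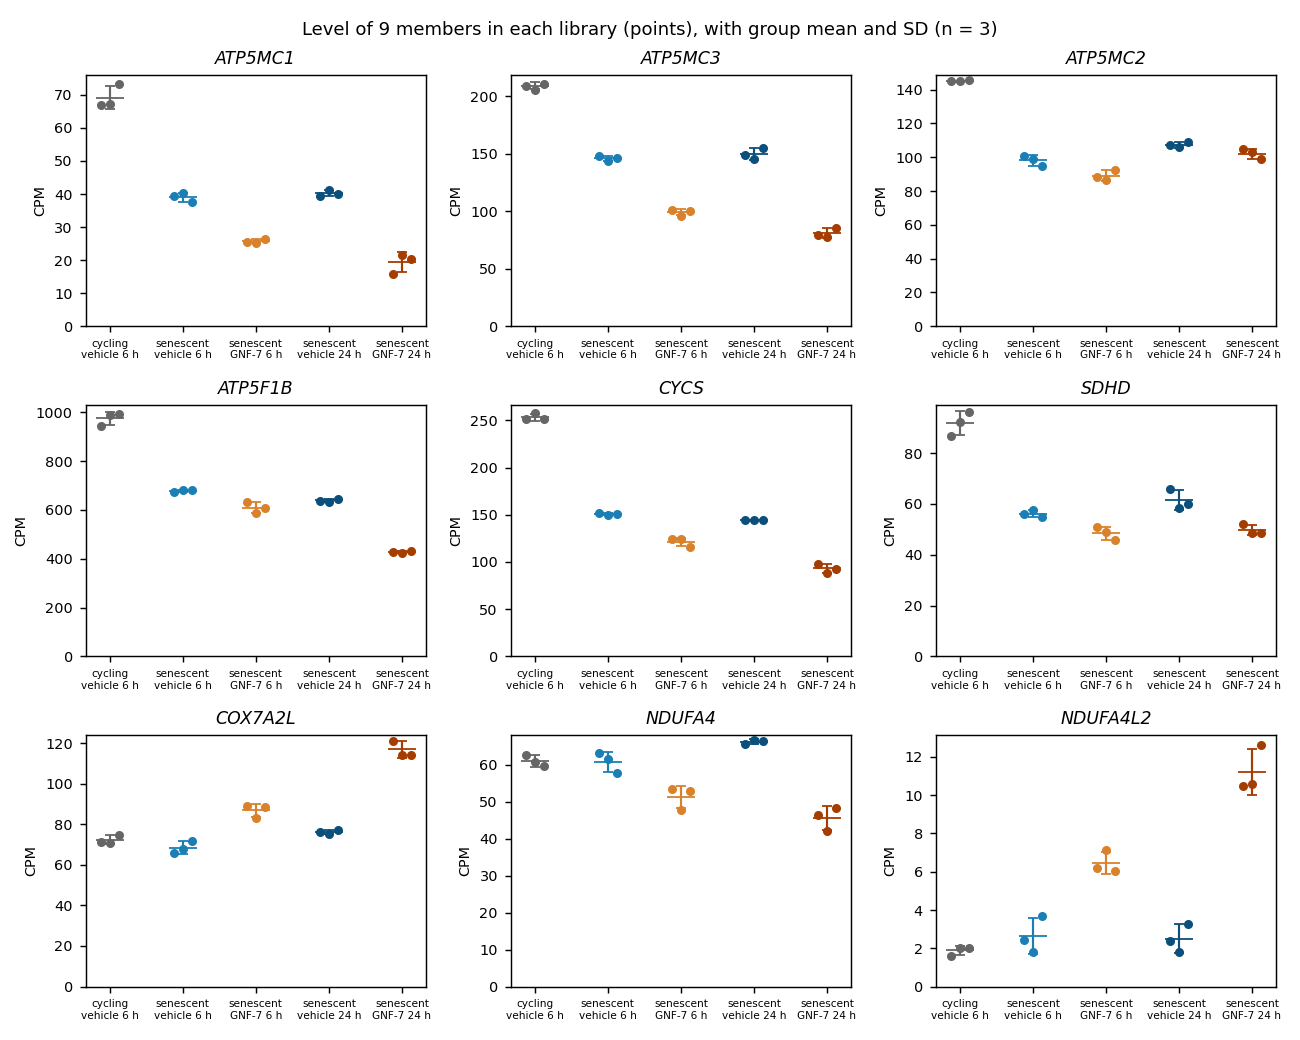
CPM of 9 members in each of the 15 libraries (points), with the group mean and SD (n = 3), on axes that start at 0. After 24 h of GNF-7, ATP5MC1 averages 19.3 and ATP5MC3 80.9 CPM, both below every vehicle library, ATP5MC2 averages 102 CPM beside 107 in vehicle, and COX7A2L and NDUFA4L2 stand above all other groups.

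CYCS was at 144, 144 and 144 CPM in vehicle and 98.2, 88.6 and 92.8 CPM in GNF-7 libraries at 24 h (log2 fold change -0.63, SE of 0.0401 and edgeR adjusted p of 2.38e-21), again without overlap. In complex III, 8 of 10 members fell. UQCR10, a small subunit, was at 51.9, 47.8 and 53.0 CPM in vehicle and 33.5, 31.2 and 31.7 CPM in GNF-7 libraries (log2 fold change -0.66, SE of 0.0586 and edgeR adjusted p of 1.99e-15). UQCRFS1 fell by 0.53 and CYC1 by 0.41. UQCRH averaged 176 ± 0.613 CPM in vehicle and 175 ± 5.67 CPM in GNF-7 and was not called (edgeR adjusted p 0.942), whereas the 5 CPM filter called it higher (0.097, edgeR adjusted p 0.0166). Its near-copy UQCRHL rose from 3.4 ± 0.358 to 5.94 ± 0.457 CPM (0.80), a value that is uncertain because reads of the copies can be split between them.

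In complex I, 28 of 37 subunits fell. NDUFB3 was at 51.8, 46.3 and 49.5 CPM in vehicle and 31.2, 28.4 and 27.0 CPM in GNF-7 libraries (log2 fold change -0.77, SE of 0.0601 and edgeR adjusted p of 1.45e-17), the largest fall of the complex. NDUFS1 was at 84.4, 81.6 and 82.0 CPM in vehicle and 60.8, 50.2 and 52.0 CPM in GNF-7 libraries (log2 fold change -0.61, SE of 0.0497 and edgeR adjusted p of 1.01e-16). Neither pair of groups overlapped. NDUFS5 fell by 0.53, NDUFA1 by 0.51 and NDUFS8 by 0.44. NDUFV1, the NADH-binding flavoprotein, averaged 114 ± 2.98 CPM in vehicle and 107 ± 4.8 CPM in GNF-7 (-0.08) and was not called, though it was without the first vehicle (-0.109) or the second GNF-7 library (-0.121). All 4 complex II genes fell, by between 0.25 and 0.32 on the log2 scale.

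As grouped here, complex IV kept the highest summed level relative to vehicle of the 5 complexes at 24 h, although 9 of its 12 tested genes fell. The group counts COX7A2L, which averaged 76.0 CPM in vehicle and 117 CPM in GNF-7. It leaves out NDUFA4, which averaged 66.3 and 45.7 CPM, and the order with another grouping was not tested. COX7A2 fell by 0.44, COX6C by 0.43 and COX7B by 0.40. COX4I1 fell by 0.10, a call that did not hold with total counts, the 5 CPM filter or the removal of length and GC trends. COX5B was at 103, 91.2 and 110 CPM in vehicle and 103, 106 and 110 CPM in GNF-7 libraries, which overlap (0.07, edgeR adjusted p 0.215), and it was called higher at 0.128 without the third vehicle library. Against this, COX7A2L rose from 76.0, 75.1 and 77.0 CPM to 121, 114 and 114 CPM, a log2 fold change of 0.62 (SE of 0.0447 and edgeR adjusted p of 5.38e-19). Its share of the counts of COX7A2 and COX7A2L was 60.1 ± 1.6%, against 42 ± 0.69% in vehicle.

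NDUFA4 was at 65.7, 66.8 and 66.4 CPM in vehicle and 46.4, 42.2 and 48.4 CPM in GNF-7 libraries (log2 fold change -0.54, SE of 0.0529 and edgeR adjusted p of 1.12e-13). NDUFA4L2 rose from 2.39, 1.83 and 3.29 CPM to 10.5, 10.6 and 12.6 CPM, a log2 fold change of 2.17 (SE of 0.172 and edgeR adjusted p of 3.46e-16). Every treated library lay above every vehicle library. NDUFA4L2 held 3.64 ± 1% of the counts of the 2 genes in vehicle and 19.7 ± 1.1% after GNF-7. SHMT2 on the other strand averaged 112 CPM in vehicle and 309 CPM in GNF-7 cells at 24 h. Of the assembly factors, NDUFAF6 rose to 36.5, 38.0 and 38.2 CPM from 22.6, 23.1 and 24.1 CPM (0.69), NDUFAF2, a chaperone of late assembly, rose by 0.33, and NDUFAF1 fell by 0.51.

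Of the 65 members lower in senescence and the 66 lower after 24 h of GNF-7, 53 were the same genes (81.5% of the first list and 80.3% of the second), and these comparisons share no library. For reference, 72.5% of all 91 tested members were in the second list (beside the 81.5%) and 71.4% in the first (beside the 80.3%). A further 12 fell after GNF-7 and were not called in senescence, namely ATP5F1E, COX6A1, COX6B1, NDUFA1, NDUFA3, NDUFA4, NDUFA8, NDUFAF8, NDUFS8, NDUFV3, SDHC and UQCRC2, and ATP5PD, which had risen in senescence, fell after GNF-7. The difference of these genes between the comparisons was not tested. In 41 members the fall was called at both times of GNF-7, and 4 rose at both times. The 41 are 91.1% of those lower at 6 h, where 72.5% of all tested members were lower at 24 h. They are 62.1% of those lower at 24 h, where 49.5% of all tested members were lower at 6 h.

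An interaction test asked which members responded more to GNF-7 at the later time. The effect was more negative at 24 h in 35 of 91 members and more positive in 2, where 18% and 12.8% of all genes differed in these directions (30.8% in either). All 35 were also lower in GNF-7 than in vehicle at 24 h. The median difference was -0.11, against -0.00 over all genes. NDUFS1 had the most negative value (log2 fold change -0.49, SE of 0.0692 and edgeR adjusted p of 3.37e-08), followed by UQCR10 (-0.48), ATP5F1C (-0.47), UQCR11 (-0.46) and ATP5MC1 (-0.46). The interaction also takes in the change of vehicle between the times. From 6 h to 24 h complex I went from 1883 to 2027 CPM in vehicle and from 1719 to 1693 CPM in GNF-7. Complex IV went from 1120 to 1232 CPM in vehicle and from 1050 to 1116 CPM in GNF-7. Complex V went from 2341 to 2412 CPM in vehicle and from 2076 to 1770 CPM in GNF-7.

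By complex, the effect was more negative at 24 h for 9 of 17 complex V genes, 5 of 10 in complex III, 13 of 37 in complex I, 4 of 12 in complex IV and 2 of 4 in complex II. In the head of ATP synthase the effects on the alpha, beta and gamma subunit genes differed by -0.38, -0.42 and -0.47 between the times. ATP5MC3 differed at -0.33, while ATP5MC2 at 0.07 did not (edgeR adjusted p 0.416). The effects that grew upward were those on COX7A2L (log2 fold change 0.27, SE of 0.0636 and edgeR adjusted p of 0.00044) and NDUFA4L2 (log2 fold change 0.87, SE of 0.251 and edgeR adjusted p of 0.00512). The second was 0.564 and no longer called without the third senescent vehicle library at 6 h, which holds the highest NDUFA4L2 level of its group.

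Across the 91 members the log2 fold changes of GNF-7 at 6 h and at 24 h, which share no library, had a Pearson r of 0.85, and 81 members had the same sign. The points share gene length, GC content and library preparation, and the value is given as a description.

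**Figure D4:**
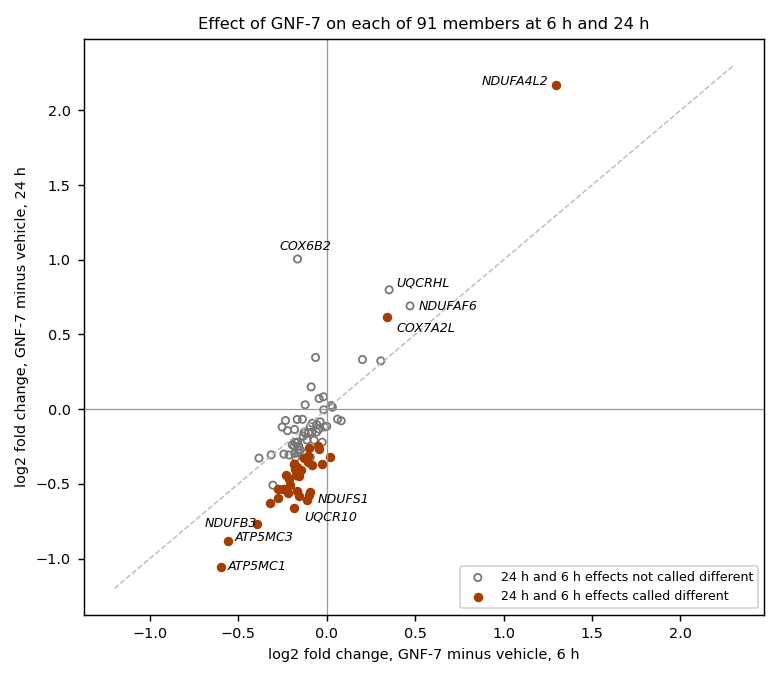
Log2 fold change of GNF-7 against vehicle at 6 h (horizontal) and 24 h (vertical) for the 91 tested members, with a dashed line of equal change and members whose 2 effects differed by edgeR's interaction test filled. Most filled points lie below the line, with ATP5MC1 at -0.60 and -1.06, and NDUFA4L2 lies at the upper end at 1.30 and 2.17.

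Vehicle at 24 h was compared with vehicle at 6 h to see how far the members moved without the inhibitor. The called members rose by small amounts, the largest being NDUFA1 at 0.28, NDUFB8 at 0.28 (lost without the second vehicle library at 6 h) and ATP5MG at 0.26. By edgeR 31 of 91 members rose and 0 fell, where 9.26% of all genes rose and 9.29% fell (18.5% in either direction). At an unadjusted p under 0.05, 48 members were higher and 1 lower, where 2777 and 2686 of all 18563 genes were. DESeq2 and limma voom each called 1 member lower, ATP5F1B (-0.09). The direction depended on scaling, since total counts gave 3 higher and 6 lower and shifted the all-gene median from 0.01 to -0.10.

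The same fit was read for 5 lists of related mitochondrial genes, with log2 fold changes given in parentheses and called by the same edgeR threshold. Of all tested genes, 35.6% rose and 34.4% fell in senescence. With GNF-7, 17.9% rose and 21.4% fell at 6 h, and 29.3% rose and 29.7% fell at 24 h. Of the 13 subunits encoded by mitochondrial DNA, 10 rose and 1 fell in senescence, with a median log2 fold change of 0.97. MT-CO1, the catalytic subunit of complex IV, rose from 6148 to 24300 CPM (1.98) and MT-ND5 from 1342 to 5866 CPM (2.13). MT-ND6, the subunit gene on the light strand, was the one that fell, from 857 to 467 CPM (-0.88). After GNF-7, 3 rose at 6 h, and 6 rose and 1 fell at 24 h, with MT-ND1 at 0.70 and MT-ND6 at -0.46. In vehicle at 24 h 12 of 13 were higher than at 6 h, where 9.26% of all genes were. Leaving these genes out of the scaling gave 61 members lower in senescence, 43 at 6 h and 69 at 24 h.

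Most citrate cycle enzymes of the matrix fell in the same comparisons as the members. In senescence 12 of 14 were lower and 2 higher (median -0.54), with FH at -1.42, IDH2 at -1.25 and citrate synthase (CS) at -0.59. At 6 h of GNF-7, 10 of 14 fell and 1 rose, with OGDH at -0.49, and at 24 h 14 of 14 fell, where OGDH was at -0.59, DLD at -0.51 and CS at -0.45. The backgrounds are the same as for the members.

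Of 50 assembly factors and chaperones of the chain outside the members, 34 fell and 5 rose in senescence, with CMC2 at -1.34, COA7 at -0.82 and LRPPRC at -0.77. After GNF-7 at 6 h 11 of 50 were lower and 8 higher, which is near the shares of all genes (21.4% and 17.9%), and at 24 h 22 were lower and 11 higher (29.7% and 29.3% of all genes). COX19, a copper-related assembly factor of complex IV, rose at both times (0.92 and 0.95), from 17 to 32.2 CPM at 6 h and from 16.7 to 32.3 CPM at 24 h. COA5 rose by 0.53 at 24 h, TTC19 rose by 0.35 at 6 h, and HIGD1A fell by 0.44 on the log2 scale at 24 h.

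Among 17 regulators of mitochondrial biogenesis and mitochondrial DNA expression, 12 fell and 3 rose in senescence. TFAM, which packages and transcribes mitochondrial DNA, fell from 146 ± 5.19 to 58.1 ± 1.61 CPM (-1.33), YY1 was at -0.82 and the coactivator PPRC1 at -0.59. NRF1, whose letters were searched above, was at 23.3 CPM in cycling and 14.1 CPM in senescent cells (-0.72). After 6 h of GNF-7 it was lower (-0.44). At 24 h it was at 12.3, 15.8 and 11 CPM in vehicle and 15, 15.5 and 15.4 CPM in GNF-7 libraries, so that the second vehicle library lay above all treated ones. It was called at 0.22 (edgeR adjusted p 0.0369), and the effects at the 2 times differed (0.66, edgeR adjusted p 7.04e-05). PPARGC1A, the coactivator PGC-1 alpha, rose at 6 h from 4.62 to 9.71 CPM (1.07) and at 24 h from 3.61 to 5.6 CPM (0.64). PPRC1 (-0.38) and POLRMT (-0.33) fell at 6 h, and TFB2M (-0.61), PPRC1 (-0.57) and POLG (-0.37) fell at 24 h. In total, 6 of the 17 regulators fell and 2 rose at 6 h (21.4% and 17.9% of all genes). At 24 h 8 fell and 4 rose (29.7% and 29.3% of all genes).

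Of 12 mitochondrial chaperones, proteases and stress relay genes, 10 fell and 1 rose in senescence, including the chaperonin HSPD1 (-1.19), the matrix protease LONP1 (-1.17) and TRAP1 (-1.02). LONP1 then rose with GNF-7, from 99.2 to 171 CPM at 6 h (0.78) and from 113 to 285 CPM at 24 h (1.33). The chaperone HSPA9 rose from 372 to 580 CPM at 6 h (0.64) and from 346 to 708 CPM at 24 h (1.03). ATF5 fell at 6 h (-0.49), and DNAJA3 rose at 24 h (0.33). More genes of this list fell than rose at both times. In the list of 12, 3 rose and 5 fell at 6 h (17.9% and 21.4% of all genes). At 24 h 3 rose and 7 fell (29.3% and 29.7% of all genes).

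**Figure D5:**
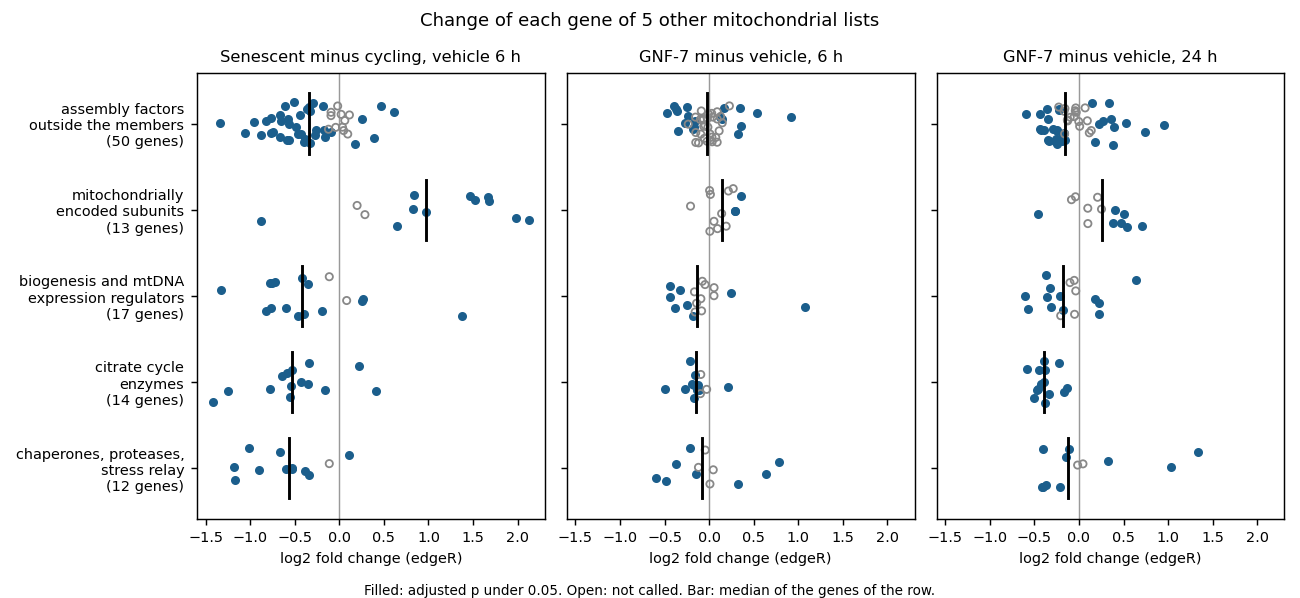
Log2 fold change (edgeR) of each gene of 5 other mitochondrial lists in 3 comparisons, with called genes filled and the median of each row as a bar. The mitochondrially encoded subunits have a median of 0.97 in senescence, citrate cycle enzymes lie left of 0 after 24 h of GNF-7, and LONP1 and HSPA9 are the rightmost points of the last row at 24 h, at 1.33 and 1.03.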

How the data were processed

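The authors deposited 1 table of raw counts per Ensembl gene for the 15 libraries, with no normalization. Per the labels' protocols, RNA went through a stranded mRNA kit. The submitters' processing notes name bcl2fastq 2.20.0.422, STAR 2.7.9a, featureCounts 1.5.1 and GRCh38, and the annotation release and the strand setting are not given in the sources used here. One gene entry broken over 3 of 60673 rows was left out. It held at most 0.00475% of a library.

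Biotypes, coordinates, lengths and overlaps came from GENCODE release 29, which held 58452 of the 60670 genes. Genes outside it had no biotype and could not become members. Symbols matched for 60400 genes. Counts were fitted in edgeR 4.0.16 (R 4.3.3; filterByExpr, TMM, robust quasi-likelihood test) over all 5 groups, with 5 contrasts, Benjamini-Hochberg adjustment over 18563 genes and a call at 0.05. CPM use TMM-scaled library sizes. Standard errors are the absolute fold change in log2 divided by the square root of F. Overlap with other genes on the same strand reached 10% of exon length in 17 members, whose values are uncertain, as are those of genes with near-identical copies.

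Alternatives were RLE size factors, total counts, scaling without mitochondrial DNA genes, DESeq2 1.42.0, limma 3.58.1 voom, a replicate block, dropping the filter, requiring 5 CPM on average, fitting the compared groups alone and leaving out each library. Removal of length and GC trends and the TTGCATCA search were chosen after seeing the data. On counts simulated for GNF-7 at 24 h, with 200 of 18563 genes changed 2-fold, the code was tested and recovered 154 (77%) with 18 false calls. Libraries of a group differed by more than sampling noise (chi-square per degree of freedom 3.02 to 12.73).

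Members named were 30 set by symbol, the 5 largest called rises and falls in each contrast at a mean of 1 CPM or more, members called against the direction of their complex and, from each list, the 3 smallest p. NDUFAF1, NDUFAF4, UQCRH, ATP5F1C, ATP5F1D and other members outside that rule were chosen after their values were seen. The members and lists were chosen with earlier results of these data known. Counting intervals and floors cover counting error only.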

Additional observations from a re-analysis of the deposited data

Results flagged for a closer look

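By edgeR's interaction test the effect of GNF-7 at 24 h was more negative than at 6 h in 35 members and more positive in 2. The 18 given here were set by symbol or had the largest changes in this test. Other members named in the text were also called, such as NDUFB3, NDUFS5 and ATP5PB. Values are the log2 fold change at 24 h minus that at 6 h. The difference was positive for NDUFA4L2 (0.87) and COX7A2L (0.27). In ATP synthase it was -0.46 for ATP5MC1, -0.33 for ATP5MC3, -0.38 for ATP5F1A, -0.42 for ATP5F1B and -0.47 for ATP5F1C. In complex I it was -0.49 for NDUFS1 and -0.34 for NDUFB8, and in complex II -0.21 for SDHA and -0.19 for SDHB. In complex III and cytochrome c it was -0.48 for UQCR10, -0.46 for UQCR11, -0.26 for UQCRFS1, -0.26 for CYC1 and -0.31 for CYCS. In complex IV it was -0.21 for COX7A2 and -0.29 for NDUFA4. The calls of SDHA and NDUFB8 were lost when single libraries were left out, and that of NDUFA4L2 without the third senescent vehicle library at 6 h.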

How the results depend on the processing

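Of 125 single-member values recomputed under 10 alternatives and with each of 15 libraries left out, 87 kept their direction and their side of the threshold throughout. In senescence the number of members called higher was 12 with total counts, 14 with the 5 CPM filter, 8 with only the groups compared and 7 with length and GC trends removed, and the median was -0.138, -0.127, -0.214 and -0.373 in the same order. With 1 library left out, 1 to 3 members were higher and 59 to 67 lower, with medians of -0.297 to -0.273. Without the third vehicle library at 6 h, 1 was higher. For GNF-7 at 6 h the median was -0.094 with the 5 CPM filter. Leaving out 1 library gave 4 to 5 higher, 27 to 50 lower and medians of -0.153 to -0.112, with the 27 arising without the second GNF-7 library. For GNF-7 at 24 h the median was -0.17 with the 5 CPM filter and -0.295 with length and GC trends removed. Leaving out 1 library gave 6 to 7 higher, 61 to 68 lower and medians of -0.272 to -0.229. The difference between times had a median of -0.072 with the 5 CPM filter. Leaving out 1 library gave 1 to 3 higher, 29 to 37 lower and medians of -0.135 to -0.087. In vehicle over time, total counts gave 3 higher, 6 lower and a reversed median of -0.006, and no filter gave 20 higher. ATP5F1B was the 1 member called lower with scaling without mitochondrial DNA genes, the 5 CPM filter, DESeq2, limma voom, only the groups compared, length and GC trends removed, and without the second GNF-7 library at 6 h. Leaving out 1 library gave 22 to 33 higher, 0 to 1 lower and medians of 0.095 to 0.121. The causes were not tested.

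Some single values changed sign. In senescence COX7A2 was at 0.022 with total counts and 0.04 with the 5 CPM filter, COX7A2L at 0.055 and 0.073, and UQCRC2 at 0.067 and 0.085, the last now called. SDHA was at 0.008 with the 5 CPM filter. With length and GC trends removed COX7A2L was at 0.077, UQCRC2 at 0.044 and COX5B at -0.186 (called lower) in senescence, and COX5B at -0.078 for GNF-7 at 24 h. At 24 h UQCRH was at 0.025 with total counts, and with the 5 CPM filter UQCRH was at 0.097 (called higher), ATP5F1D at 0.034, ATP5MC2 at 0.033 and NDUFV1 at 0.016. Leaving out 1 library put UQCRH between -0.033 and 0.008 (0.003 without the second GNF-7 library at 6 h) and COX5B between -0.004 and 0.128.

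Of 30 same-numbered pairs of libraries, 0 had deviations correlated above 0.1. Their correlations ran from -0.037 to 0.058, and those of pairs with different numbers from -0.069 to 0.04. Whether replicate numbers pair cultures is not settled by these values. With the replicate block 4 members were higher and 67 lower in senescence, 4 and 53 for GNF-7 at 6 h, 6 and 67 at 24 h, 2 and 36 for the difference between times, and 34 and 1 in vehicle over time. Few counts limit what can be said of members near 1 CPM, such as NDUFA7 and NDUFV2. Their exons overlap another gene on the same strand by 32.3% and 28.4%, and why their counts are low was not tested.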

Other observations

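Of the tested members, 6 were called in none of the 5 comparisons, namely COX6B2, NDUFA11, NDUFA13, NDUFAF5, NDUFS4 and NDUFV2. COX6B2, an isoform known from testis, had 78 counts in all libraries together. NDUFV2, a core subunit of complex I, had 529 counts, and 28.4% of its exon length lies in another gene on the same strand, which had 0 counts. NDUFA13 had 5251 counts, fewer than the 9995 of its overlapping neighbour YJEFN3.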
